A study of Homo sapiens with 6 samples.

Results

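The integrin and laminin chains are 38 of the 58735 genes in the table. They were chosen by name among protein-coding genes as integrin alpha chains (18), integrin beta chains (8) and laminin alpha, beta and gamma chains, and 37 of them are described. The cells were A549, an established line from a human lung adenocarcinoma, and both groups are labelled with that same line. One group received empty pcDNA3.1, an expression vector, and carries the genotype label WT. The other received a plasmid carrying ZBTB16, a zinc finger transcription factor, and carries the label ZBTB16 overexpression. Each group had 3 libraries. The sources used here give neither the time after transfection nor whether transfected cells were selected. Separate cultures are not stated for the repeats, so p-values refer to the variation among libraries, which could be technical.

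Integrins are cell-surface receptors made of an alpha and a beta chain, and a chain reaches the surface only once it has paired. They bind matrix proteins such as fibronectin, collagens and laminins outside the cell and actin or keratin filaments through adaptors inside it. Laminins are secreted trimers of an alpha, a beta and a gamma chain that build the basement membrane, the sheet on which lung epithelium rests. ITGA3-ITGB1 and ITGA6-ITGB4 are the main laminin receptors of epithelia, and ITGA6-ITGB4 anchors keratins in hemidesmosomes.

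The libraries held between 15478010 and 17319971 reads assigned to genes, as recovered from the deposited FPKM, the read count scaled to gene length and library size. That library size differed from the recovered reads by -0.230% to 0.971%. FPKM is per length, but the length is that of all exons of a gene merged, whether used or not. Levels of different chains can therefore be compared only roughly. ZBTB16 was listed at 0 in the empty-vector libraries and stood at 426, 488 and 456 FPKM in the others, where reads from the plasmid are included. Of the 10 markers of lung adenocarcinoma and alveolar epithelium, 6 were at or above 1 FPKM in every library. The keratins KRT8, KRT18 and KRT7 stood between 494 and 744 FPKM, while the alveolar markers SFTPC and NKX2-1 stayed under 0.02. SFTPB reached 0.0561 FPKM, and NAPSA ranged from 0.300 to 0.572. EPCAM, a defining epithelial marker, stood between 1.05 and 1.47 FPKM. The labels' extraction text names retinas, but the 4 retinal markers read, RPE65 at 0 among them, summed to at most 0.103 FPKM.

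A549 cells expressed a small part of the integrin family at high level. Of the 37 chains, 18 had a mean of at least 1 FPKM over the 6 libraries, 13 of at least 10 and 4 of at least 100. Among the integrin alpha chains ITGA3, which binds laminins, led in every library. It stood at 152, 152 and 156 FPKM with empty vector and at 169, 151 and 175 FPKM with ZBTB16, and the groups overlapped. ITGAV, the alpha chain shared by the receptors of the RGD motif in vitronectin and latent TGF-beta, stood at 46.4, 49.9 and 51.9 FPKM with empty vector and at 50.9, 50.7 and 49.3 with ZBTB16. ITGA6, the laminin-binding partner of ITGB4, stood at 18.7, 20.8 and 19.7 FPKM with empty vector and at 18.4, 22.3 and 18.7 with ZBTB16. Both chains overlapped between the groups, and ITGAV exceeded ITGA6 in every library.

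Between these lay the collagen receptor chain ITGA2 and the fibronectin receptor chain ITGA5, whose values are given with the comparison of the groups. In all 6 libraries the alpha chains kept the order ITGA3, ITGAV, ITGA2, ITGA5, ITGA6, ITGAE, ITGA11, ITGAM and ITGAX. ITGA2 and ITGA5 were close neighbours, at 23.3 and 23.0 FPKM in empty-vector replicate 1. ITGAE, a chain known from intraepithelial T cells, stood at 3.79, 3.85 and 3.49 FPKM with empty vector and at 3.41, 3.67 and 3.49 with ZBTB16. Its exons are covered over 7.59% by genes of the opposite strand, HASPIN among them, and the counting is not stated to use strand. Below ITGAX neighbouring chains changed places between libraries, as ITGAX stood above ITGA10 in only 2 of 6.

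Among the beta chains 3 stood far above the rest. ITGB1, the partner of 12 alpha chains, stood at 306, 319 and 320.7 FPKM with empty vector and at 314, 319.7 and 307 with ZBTB16, the highest level of any integrin or laminin chain in every library. ITGB5, which pairs with ITGAV, stood at 118, 116 and 119 FPKM with empty vector and at 110.0, 107 and 120.4 with ZBTB16. ITGB4, whose long cytoplasmic part reaches the keratin network, stood at 98.9, 104 and 107 FPKM with empty vector and at 100.1, 95.2 and 108 with ZBTB16. In all 3 chains the groups overlapped, and the order ITGB1, ITGB5, ITGB4 held in 6 of 6 libraries. ITGB3, the vitronectin receptor chain also known from platelets, followed far below at 1.01, 0.695 and 1.09 FPKM with empty vector and at 1.06, 1.26 and 1.02 with ZBTB16. Exons of a further protein-coding gene on the same strand cover 51.6% of ITGB3, so its level is uncertain. ITGB8, a partner of ITGAV in activating TGF-beta, ITGB2 and ITGB6 stayed under 1 FPKM in every library, and a non-coding gene on the same strand covers 20.6% of the exon bases of ITGB6.

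Laminin chains divided in the same way into a few high and several near-silent members. LAMA5, the alpha chain of the laminins found widely in adult epithelial basement membranes, stood at 93.3, 98.0 and 95.8 FPKM with empty vector and at 106, 83.6 and 113 FPKM with ZBTB16. The ZBTB16 libraries lay on both sides of the empty-vector ones. LAMA3, the alpha chain of the epithelial adhesion laminin, stood at 4.61, 5.66 and 5.31 FPKM with empty vector and at 5.60, 4.89 and 5.91 with ZBTB16. LAMA5 was therefore 18.5 ± 1.53 times LAMA3 with empty vector and 18.4 ± 1.08 times with ZBTB16 (SD, n = 3 each). The short and long transcripts of LAMA3 were summed in the gene value, and its length of 14678 bases is that of all exons merged, which lowers the FPKM of a gene transcribed mainly in a short form.

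Of the beta chains LAMB3, the partner of LAMA3, led in every library, followed by LAMB1 and LAMB2, the beta chains of most other laminins. LAMB1 stood at 36.2, 37.7 and 37.0 FPKM with empty vector and at 35.0, 35.5 and 35.7 with ZBTB16, where all 3 ZBTB16 values were lower. LAMB2 stood at 28.5, 28.8 and 30.5 FPKM with empty vector and at 30.3, 28.2 and 32.3 with ZBTB16, with overlap. LAMC1, the gamma chain of most laminins, stood at 46.5, 51.4 and 53.1 FPKM with empty vector and at 52.3, 49.9 and 52.4 with ZBTB16, also with overlap. Summed by class, laminin alpha chains came to 102 ± 2.87 FPKM with empty vector and 107 ± 15.6 with ZBTB16, with overlap (SD, n = 3 each). Laminin beta chains came to 114 ± 0.923 and 119.8 ± 4.75 FPKM, and these sums did not overlap. The sums were not tested, and of the laminin beta chains LAMB3 alone had all ZBTB16 values higher. Among all tested genes 8.12% lay apart in that direction.

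**Figure D1:**
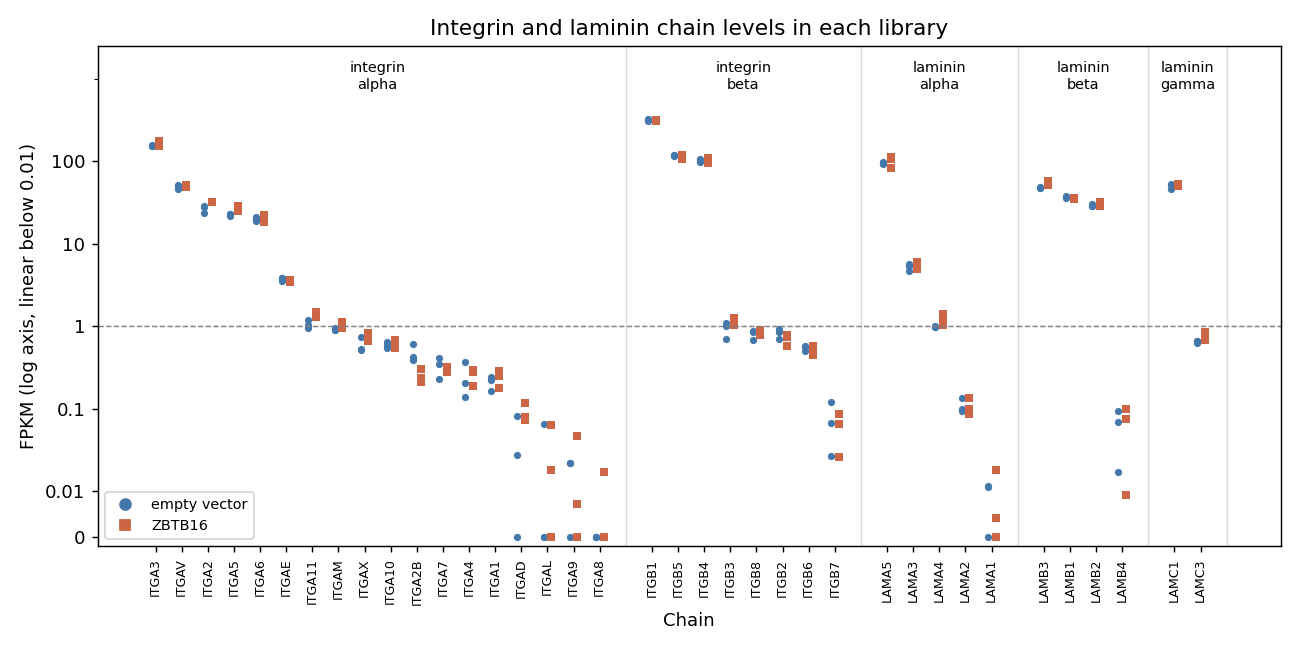
FPKM of each of the 37 chains in each library, on a log axis that is linear below 0.01, with chains ordered by mean level within their class, circles for empty vector, squares for ZBTB16 and a dashed line at 1 FPKM. Means of 13 chains lie above 10 FPKM, LAMA5 alone among the laminin alpha chains, and 19 chains have means under 1 FPKM.

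The 19 chains with a mean under 1 FPKM included those that mark other cell types. ITGAM and ITGAX, alpha chains of myeloid cells, stood between 0.895 and 1.13 FPKM and between 0.507 and 0.827 FPKM, and their partner ITGB2 between 0.577 and 0.926. The leukocyte markers CD3E and PTPRC were at 0 and at most 0.00655 FPKM, and the summed level of the 6 leukocyte markers ran from 3.21 to 3.79 FPKM with empty vector and from 3.26 to 3.53 with ZBTB16, nearly all of it CD14. ITGA2B, the platelet chain, stood at 0.614, 0.421 and 0.389 FPKM with empty vector and at 0.233, 0.211 and 0.301 with ZBTB16, from 132 and 69 reads in all. Each ZBTB16 library was lower than each empty-vector library. The 4 platelet and megakaryocyte markers summed to 1.67 to 2.78 FPKM with empty vector and 1.69 to 2.29 with ZBTB16, with GP9 at 0. Most of that was GP1BA, at 1.27 to 2.28 FPKM, while PF4 reached 0.750 FPKM, and the part of these markers in the ITGA2B values was not tested.

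ITGA10, ITGA7, ITGA4 and ITGA1 ranged from 0.136 to 0.687 FPKM. ITGA1 lies around PELO, which with another gene of the same strand covers 5.63% of its exons. LAMC3, a gamma chain of a few laminins, ranged from 0.631 to 0.843 FPKM and LAMA2, the alpha chain of muscle laminins, from 0.0847 to 0.134. The remaining 7 chains had means under 0.1 FPKM. These were ITGB7, ITGAD, LAMB4, ITGAL, ITGA9, LAMA1 and ITGA8, with 29, 28, 43, 16, 13, 12 and 2 reads over all 6 libraries. Exons of ZNF740 on the other strand cover 42.1% of ITGB7. ITGA8 had 0 reads with empty vector, which allows up to 3 reads over that group, or 0.00796 FPKM.

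Which receptors these transcripts allow was read from the 24 described integrin pairs. A pair was called possible where both chains stood at 1 FPKM or more in every library of a group. By that measure 7 pairs were possible with empty vector and 9 with ZBTB16. The 7 common to both groups used 8 chains, and they were ITGA2, ITGA3, ITGA5, ITGA6 and ITGAV with ITGB1, ITGA6 with ITGB4 and ITGAV with ITGB5. They cover laminin, collagen, fibronectin and vitronectin binding. In each of the 7 the alpha chain was the lower one. For ITGA3-ITGB1 the lower chain averaged 154 ± 2.13 FPKM in the empty-vector libraries and 165 ± 12.5 FPKM in the ZBTB16 libraries (SD, n = 3 each). For ITGA6-ITGB4 it stood at 19.7 ± 1.04 and 19.8 ± 2.13 FPKM, and ITGB4 was 5.24 ± 0.206 times ITGA6 with empty vector and 5.16 ± 0.787 times with ZBTB16. Summed FPKM of all beta chains, 539 ± 12.3 and 530.3 ± 7.15, exceeded that of all alpha chains, 279.9 ± 7.84 and 302 ± 10.9. The alpha sums did not overlap between the groups and the beta sums did. No sum was tested, and the alpha sum holds ITGA2 and ITGA5, which lay apart as single chains. Among all tested genes 8.12% lay apart with higher ZBTB16 values.

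The other 2 pairs, ITGA11-ITGB1 and ITGAV-ITGB3, were possible with ZBTB16 alone because their lower chain lay next to the limit. ITGA11, a collagen-binding chain of fibroblasts, stood at 0.957, 1.03 and 1.19 FPKM with empty vector and at 1.43, 1.48 and 1.29 with ZBTB16. A single empty-vector library fell short for each pair, replicate 1 for ITGA11 and replicate 2 for ITGB3, and neither chain passed the test of a difference. Fibroblast markers summed to 2.15 to 2.48 FPKM with empty vector and to 2.11 to 2.52 with ZBTB16, most of it COL1A1. LUM reached 0.279 FPKM and PDGFRA 0.108, while COL3A1 stayed under 0.06 FPKM and DCN under 0.005. Their part in the ITGA11 values was not tested. Just outside the limit in both groups were ITGAM-ITGB2 and ITGAV-ITGB8, whose lower chains stood at 0.815 ± 0.104 and 0.804 ± 0.110 FPKM with empty vector. ITGAE, above 3 FPKM, had its described partner ITGB7 at no more than 0.120 FPKM. At 5 FPKM the same 7 pairs were possible in both groups. Pairing and protein at the surface were not measured.

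Of 13 described laminin trimers read here 4 were possible with empty vector and 6 with ZBTB16. The 4 were LAMA3-LAMB1-LAMC1, LAMA3-LAMB2-LAMC1, LAMA5-LAMB1-LAMC1 and LAMA5-LAMB2-LAMC1, and they used 5 chains. LAMA3 was the lowest chain of the 2 trimers that hold it, averaging 5.19 ± 0.536 FPKM in the empty-vector and 5.46 ± 0.525 FPKM in the ZBTB16 libraries (SD, n = 3 each). LAMB3 stood 9.35 ± 1.15 times above LAMA3 with empty vector and 9.95 ± 0.997 times with ZBTB16, and the ratios overlapped. Their size rests on merged exon lengths, 4688 bases for LAMB3 and 14678 for LAMA3. Over all 6 libraries LAMB3 had 23965 reads and LAMA3 7814. In LAMA5-LAMB1-LAMC1 the lowest chain was LAMB1, at 37.0 ± 0.757 and 35.4 ± 0.359 FPKM, and in LAMA5-LAMB2-LAMC1 it was LAMB2, at 29.3 ± 1.07 and 30.3 ± 2.05 FPKM.

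The other 2 trimers, LAMA4-LAMB1-LAMC1 and LAMA4-LAMB2-LAMC1, were possible with ZBTB16 alone. Their alpha chain LAMA4, known from blood vessels and muscle, stood at 1.01, 0.989 and 0.986 FPKM with empty vector and at 1.03, 1.40 and 1.29 with ZBTB16. The empty-vector values thus lay at the limit itself, and LAMA4 did not pass the test. Endothelial markers summed to no more than 0.204 FPKM with empty vector and 0.263 with ZBTB16, and VWF and KDR stayed under 0.02 FPKM. A limit of 5 FPKM left the 2 trimers of LAMA5 with LAMC1 in both groups, since LAMA3 lay near that limit. The 2 trimers with LAMC3 and a higher alpha chain, LAMA4-LAMB2-LAMC3 and LAMA5-LAMB2-LAMC3, fell short of 1 FPKM, as LAMC3 averaged 0.650 ± 0.0167 and 0.754 ± 0.0807 FPKM.

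**Figure D2:**
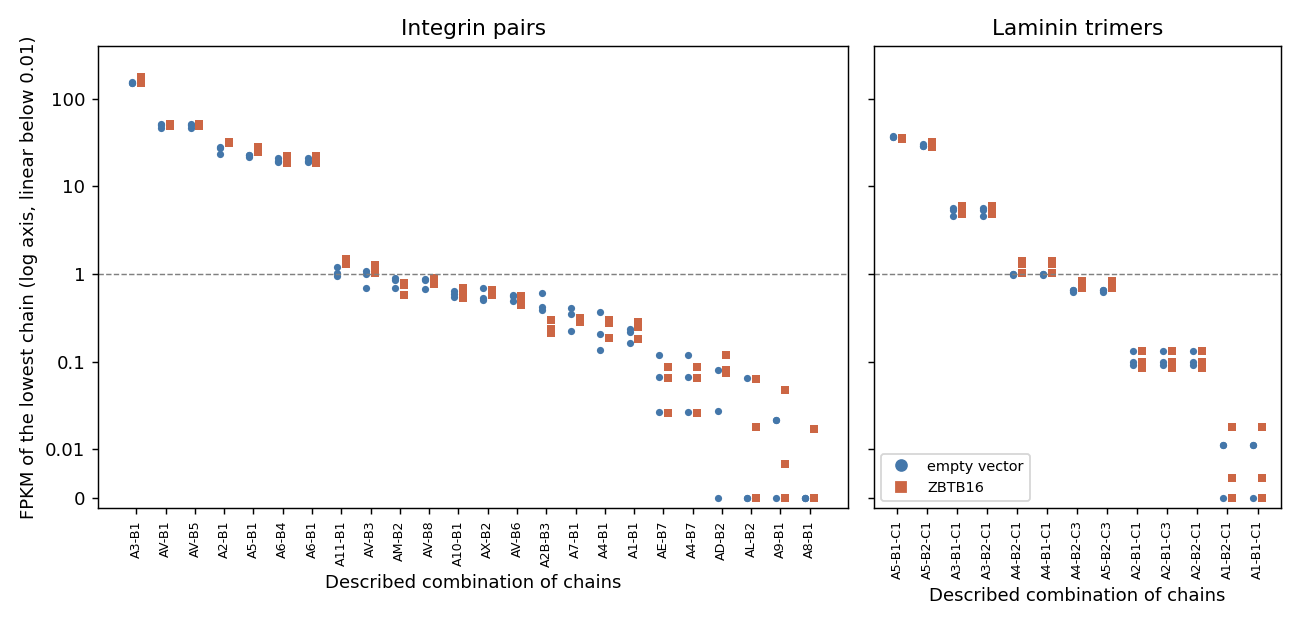
FPKM of the lowest chain of each described integrin pair (left) and laminin trimer (right) in each library, on a log axis that is linear below 0.01, with circles for empty vector, squares for ZBTB16 and a dashed line at 1 FPKM. In 7 pairs and 4 trimers all libraries lie above the line, and 2 pairs and 2 trimers straddle or touch it with empty vector and lie above it with ZBTB16.

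None of the integrin and laminin chains described passed the test over all genes with ZBTB16. The receptor chains for laminin, ITGA3, ITGA6, ITGB1 and ITGB4, were not called, and neither were the laminin chains LAMA3, LAMA5, LAMB1, LAMB2, LAMB3 and LAMC1. Of the 18 chains tested with limma 0 were called higher and 0 lower at an adjusted p under 0.05, where 0.064% of the 12499 tested genes were called higher and 0.008% lower. At an unadjusted p under 0.05, 4 chains were higher and 0 lower, against 5.08% and 5.17% of all tested genes. Limma voom on the recovered reads called 2 higher, ITGA2 and ITGA5, and 0 lower, against 0.776% and 0.736% of all tested genes. The median log2 fold change was 0.05 over the 18 chains and -0.0031 over all tested genes, with 13 chains positive and 5 negative where 6057 genes were positive and 6442 negative.

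Shares of summed FPKM were read within each class. LAMB3 took 42.1 ± 0.845% of the laminin beta sum with empty vector and 45.1 ± 1.09% with ZBTB16, with no overlap (SD, n = 3 each). The LAMB3 to LAMB1 ratio was 1.35, 1.26 and 1.29 with empty vector and 1.46, 1.52 and 1.60 with ZBTB16. These ratios could not overlap, since in every ZBTB16 library LAMB3 was higher and LAMB1 lower than in any empty-vector library. The ratios therefore add nothing to the values of the 2 chains, and a ratio shows unequal change, not which chain changed. LAMB1 took 32.3 ± 0.644% and 29.6 ± 0.907% of the beta sum. The order of these 2 chains rests on the length correction, since of the reads of the class LAMB3 took 31.0% and 33.8% and LAMB1 41.3% and 38.4%. In the alpha class LAMA3 took 5.08 ± 0.388% and 5.11 ± 0.278%, and LAMA5 nearly all the rest. Among integrins ITGB1 took 58.4 ± 0.283% and 59.1 ± 1.98% of the beta sum, and ITGA3 took 54.9 ± 0.985% and 54.6 ± 2.22% of the alpha sum, both with overlap. The alpha chain ITGA2 took 9.45 ± 0.757% and 10.5 ± 0.467%, and ITGA5 took 8.05 ± 0.367% and 8.82 ± 0.330%. Both had higher shares in every ZBTB16 library than in any empty-vector one. The shares of LAMB3, ITGA2 and ITGA5 come from the same FPKM values as their levels and are no separate result.

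**Figure D3:**
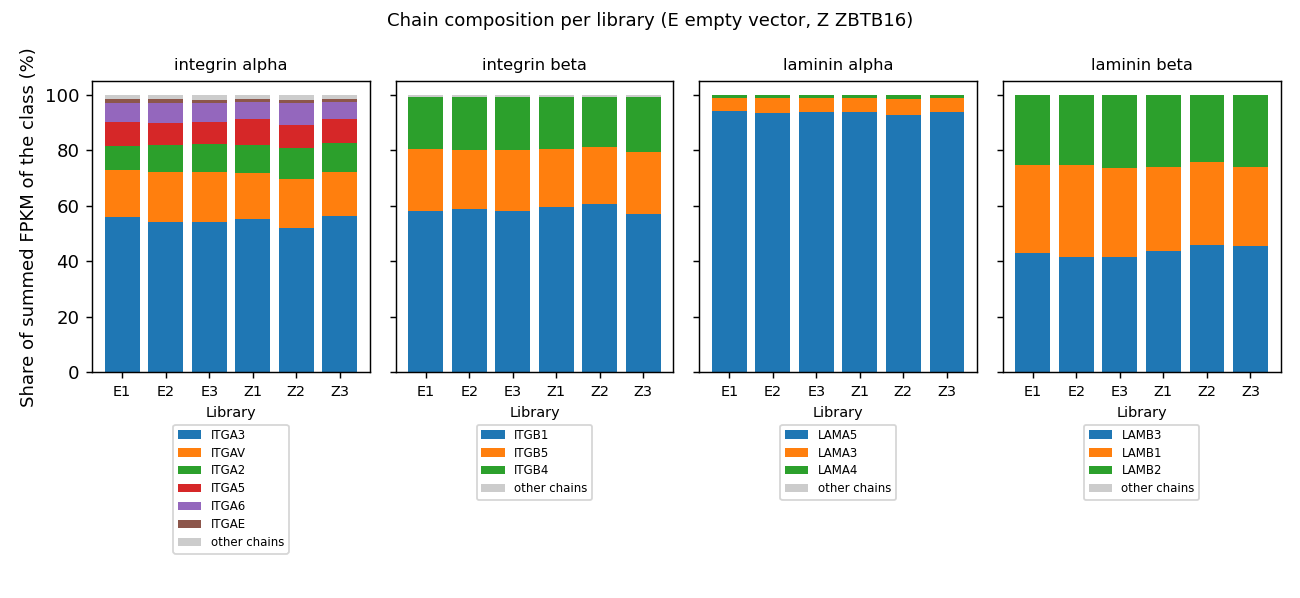
Share of the summed FPKM of the integrin alpha, integrin beta, laminin alpha and laminin beta chains, in percent, taken by each chain in each library, with E1 to E3 for empty vector and Z1 to Z3 for ZBTB16, and chains with a mean share under 1% merged. LAMB3 takes 42.1% on average with empty vector and 45.1% with ZBTB16, and the shares of ITGA3 and ITGB1 overlap between groups.

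LAMB3 (ENSG00000196878, chromosome 1, 209614870 to 209652466, minus strand), the beta chain of the laminin that hemidesmosomes bind, stood at 48.9, 47.5 and 47.9 FPKM with empty vector and at 51.1, 54.0 and 57.1 with ZBTB16. The groups lay apart, by 12.3% on average. Its log2 fold change, 0.16 with a 95% interval from 0.05 to 0.28, had an adjusted p of 0.274 in limma. A two-sided exact permutation of the 6 libraries gave 0.1, the smallest p that 3 libraries against 3 allow. In bulk libraries a change in the number of cells of a type and one in RNA per cell cannot be told apart. LAMA3, the alpha chain it joins, had a log2 fold change of 0.06 with a 95% interval from -0.13 to 0.26. ITGA2 (ENSG00000164171, chromosome 5, 52989326 to 53094779, plus strand) stood at 23.3, 27.7 and 28.5 FPKM with empty vector and at 31.6, 32.0 and 31.6 FPKM with ZBTB16. Its groups also lay apart, with a wide gap between empty-vector replicate 1 and the other two. The log2 fold change was 0.26 (SE 0.0715, 95% interval 0.09 to 0.42), with an adjusted p of 0.225 in limma on log2 FPKM and of 0.0327 in limma voom on the recovered reads. Without empty-vector replicate 1 the log2 fold change was 0.17, with an adjusted p of 0.2445 in limma on log2 FPKM.

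ITGA5 (ENSG00000161638, chromosome 12, 54395261 to 54419460, minus strand) stood at 23.0, 21.7 and 22.9 FPKM with empty vector and at 28.2, 24.9 and 26.9 FPKM with ZBTB16, again with no overlap. Its 95% interval ran from 0.11 to 0.36 on the log2 scale, and its adjusted p was 0.175 in limma on log2 FPKM and 0.0252 with voom. ITGA11, at 1.06 ± 0.122 and 1.40 ± 0.0968 FPKM, and LAMA4, at 0.995 ± 0.0145 and 1.24 ± 0.190 FPKM (SD, n = 3 each), lay apart between groups as well, with limma adjusted p of 0.419 and 0.636. Over the 37 chains every ZBTB16 library exceeded every empty-vector library in 7, and the reverse held in 2, where these shares were 5.14% and 5.41% of the 31102 genes with a read. The 7 were LAMB3, ITGA2, ITGA5, ITGA11, LAMA4, ITGAM and LAMC3, and the 2 were LAMB1 and ITGA2B. Among the 18 tested chains the counts were 5 and 1, where 8.12% of all tested genes lay apart with higher and 8.1% with lower ZBTB16 values.

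**Figure D4:**
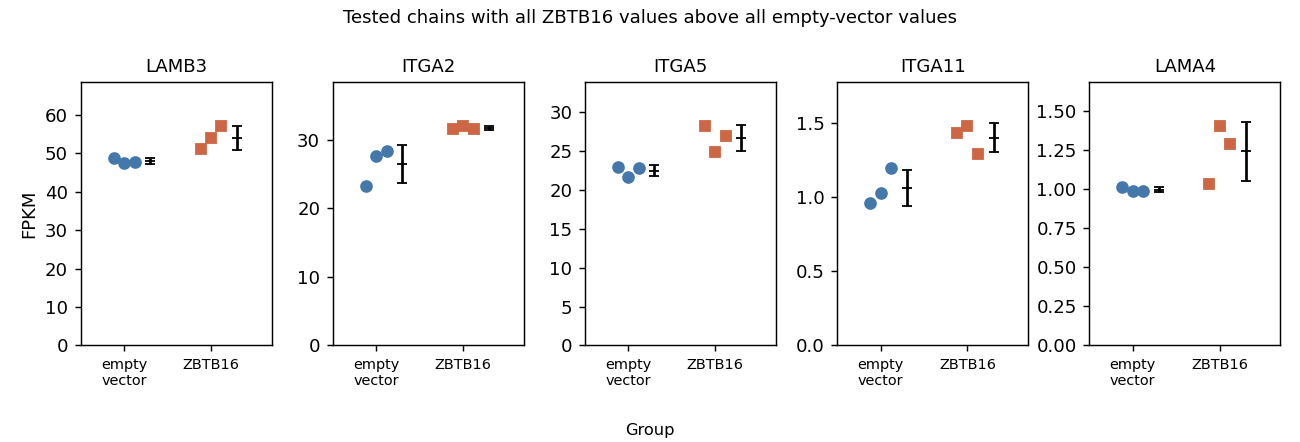
FPKM per library of the 5 tested chains whose ZBTB16 values all lie above their empty-vector values, circles for empty vector and squares for ZBTB16, with the mean and SD (n = 3) beside each group. LAMB3, ITGA2 and ITGA5 lie above 20 FPKM, with means of 48.1 and 54.1 FPKM for LAMB3, and ITGA11 and LAMA4 lie near 1 FPKM.

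Sequences before the gene start are shown for the chains that lay apart with higher ZBTB16 values at more than 20 FPKM and had an entry in the RefSeq promoter table (GRCh38.p14), which held 26 of the 37 chains. Bases before the first annotated transcript of the gene are printed 5′ to 3′ on the gene's strand, and capitals mark GC boxes, the letters GGGCGG on either strand. ITGA2 is from chr5:52989102-52989325 (plus strand), LAMB3 from chr1:209652467-209652675 (minus strand) and ITGA5 from chr12:54419461-54419516 (minus strand).
ITGA2: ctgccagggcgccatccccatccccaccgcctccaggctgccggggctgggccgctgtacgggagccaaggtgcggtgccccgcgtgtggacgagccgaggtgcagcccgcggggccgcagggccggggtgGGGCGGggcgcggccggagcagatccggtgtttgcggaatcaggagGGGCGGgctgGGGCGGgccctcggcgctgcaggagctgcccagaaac
LAMB3: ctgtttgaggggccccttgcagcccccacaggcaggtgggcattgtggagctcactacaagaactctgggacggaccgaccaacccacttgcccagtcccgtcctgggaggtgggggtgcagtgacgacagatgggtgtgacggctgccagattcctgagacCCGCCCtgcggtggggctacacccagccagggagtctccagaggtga
ITGA5: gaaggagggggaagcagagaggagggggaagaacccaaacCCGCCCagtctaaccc
The printed stretch of ITGA2 held 3 GC boxes and a GC content of 77.2%, that of LAMB3 1 GC box and 64.6% and that of ITGA5 1 GC box and 62.5%. A GC box was present in the full 300-base window, taken at the most upstream RefSeq start, of 14 of the 26 chains. Of all 35116 windows of 300 bases, for which no start per gene was chosen, 45.0% held a GC box. The AP-1 letters TGANTCA, on either strand, were found in 2 of the 26 full windows, those of ITGA5 and LAMA3, and in 7.71% of all windows. The printed stretch of ITGA5 held 0 of them. These matches describe the letters and show no binding.

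The other chains gave intervals that bound a difference rather than show its absence. ITGB1 had a log2 fold change of -0.01 with a 95% interval from -0.10 to 0.09, ITGA6 one of 0.00 from -0.17 to 0.17, and ITGB4 one of -0.03 from -0.16 to 0.10. For ITGA3 the interval ran from -0.03 to 0.24 and for LAMA5 from -0.19 to 0.31, the widest of the chains above 10 FPKM. LAMB1, whose 3 ZBTB16 values were lower, was at -0.06 with an interval from -0.15 to 0.03 and a limma adjusted p of 0.714. Limma adjusted p of the 18 chains ran from 0.175 to 0.999.

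**Figure D5:**
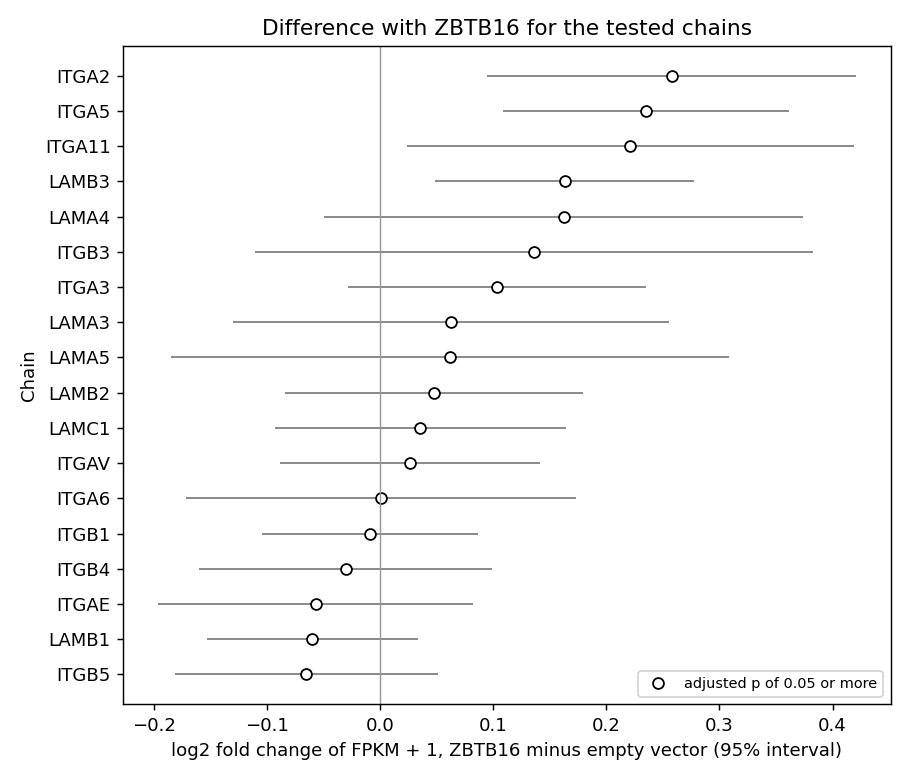
Log2 fold change of FPKM + 1, ZBTB16 minus empty vector, for the 18 tested chains, with 95% intervals from limma. The intervals of ITGA2, ITGA5, ITGA11 and LAMB3 lie above 0 before adjustment over all genes.

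Genes that work with these chains were read in 4 lists of 74 genes, of which 62 were tested, and 0 were called in either direction with limma on log2 FPKM. At an unadjusted p under 0.05, 9 were higher and 2 lower, against 5.08% and 5.17% of all tested genes. Voom called 1 higher, COL4A5, and 0 lower, against 0.776% and 0.736%. Among 13 tested integrin ligands 8 were positive and 5 negative, with a median log2 fold change of 0.07. Of all 12499 tested genes 6057 were positive, with a median of -0.0031. Fibronectin (FN1), the ligand of highest level, stood at 141 and 159 FPKM. The next 4 are named for the smallest p among the ligands, with limma adjusted p from 0.292 to 0.457. TGFB2, a TGF-beta secreted in latent form, stood at 6.63 and 7.66 FPKM, vitronectin (VTN) at 8.61 and 10.6, fibrillin FBN1 at 2.60 and 3.14 and the adhesion ligand ICAM1 at 1.56 and 2.10, in the order empty vector and ZBTB16. Other genes share exon bases with TGFB2 (26.6%, same strand), VTN (13.6%, same strand) and ICAM1 (23.6%, opposite strand), so these levels are uncertain.

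Of the 25 tested adaptors and kinases on the cytoplasmic side 18 were positive, against 6057 of all 12499 tested genes. Their fold changes ran from -0.12 to 0.06 on the log2 scale, with a median of 0.02, and none had an unadjusted p under 0.05. The actin crosslinker ACTN4, which shares 14.2% of its exon bases with a gene on the other strand, had the highest level, at 401 and 389 FPKM. ITGB1BP1, which binds the ITGB1 tail and shares 33.1% of its exon bases with a gene on the opposite strand, stood at 11.4 and 10.4 FPKM, LIMS1 of the ILK complex at 10.6 and 9.95, focal adhesion kinase (PTK2) at 10.8 and 11.3 and the zyxin gene ZYX at 47.7 and 49.6. Of 8 tested hemidesmosome and other laminin receptor genes 5 were positive and 3 negative, with a median log2 fold change of 0.0066. Among them the plakin PLEC stood at 138 and 140.2 FPKM. The syndecan SDC4, a coreceptor for fibronectin, stood at 47.6 and 54.9 FPKM with limma adjusted p of 0.232. The laminin alpha 5 receptor BCAM stood at 8.15 and 7.07 FPKM, with limma adjusted p of 0.285. The hemidesmosomal collagen COL17A1 stood at 1.25 and 1.45 FPKM and SDC1 at 107 and 103. All ZBTB16 values were lower for BCAM and SDC1, as in 8.1% of all tested genes. They were all higher for SDC4 and COL17A1, as in 8.12%.

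Of 16 tested basement membrane partners and laminin-processing genes 12 had a positive fold change, and the median was 0.07. Over all 12499 tested genes 6057 were positive and the median was -0.0031. The type IV collagen chain COL4A5 stood at 5.58, 5.74 and 5.50 FPKM with empty vector and at 6.54, 6.77 and 7.11 with ZBTB16. Its groups lay apart, and its adjusted p was 0.158 in limma on log2 FPKM and 0.0195 with voom. The laminin-binding nidogen NID2, of whose exon bases 30% are shared with a gene on the opposite strand, stood at 2.77 and 3.54 FPKM, netrin NTN4, which binds laminin gamma chains, at 42.1 and 45.7, fibulin FBLN1 at 12.3 and 10.7, and agrin (AGRN), the highest of the list, at 70.1 and 66.0.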

How the data were processed

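Bulk RNA of A549 cells was sequenced in 3 libraries per group, from total RNA taken with Trizol; the labels' protocols name a TruSeq library kit. HISAT2 2.0.5 and hg38 are named in the submitters' processing notes; the counter, strand setting and filters: not given in the sources used here. Values were deposited by the authors as FPKM per gene, with gene length and biotype per the file headers. Libraries were mapped to groups through the sample titles.

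Multiplied by gene length, 100% of the values above 0 came out as whole reads (tolerance 0.01), which gave reads per gene. The floor of 3 reads covers counting error only. The 12499 genes with a mean of at least 1 FPKM were tested with limma 3.58.1 on log2(FPKM + 1) (R 4.3.3, trended robust prior, no covariate) and Benjamini-Hochberg adjustment over all of them, two-sided; the fold change on this scale understates changes of low genes. A count model was an alternative, limma voom with the summed reads as library size. The steps were run on simulated reads with the same fixed spread setting for every gene. Such runs do not show how small a difference these libraries could reveal. Exon overlaps came from GENCODE 29. Figures used matplotlib 3.10.9.

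The members, lists, described pairs and trimers were chosen with earlier results of these data known. From each list the 4 genes of smallest p and the gene of highest FPKM are named, and every chain described is accounted for. One item that the rule holds and one marker are not reported here and enter no count or sum. Same-numbered libraries deviated from their group means with correlations of -0.0435 to 0.0672, so the numbers were not treated as pairs.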

Additional observations from a re-analysis of the deposited data

How the results depend on the processing

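With limma 0 chains were called in either direction, and voom called 2 higher, while every other alternative, each library left out included, called 0. The gene lists, with 0 called, gave 1 higher with voom. With the repeat number as a replicate block the counts were 0 chains and 0 list genes. Of 284 refitted fold changes of chains 11 had the opposite sign, in 7 uncalled chains, ITGA6, ITGAV, ITGB1, ITGB4, LAMA3, LAMA5 and LAMC1. Possible integrin pairs came to 18 in both groups at 0.1 FPKM and to 13 at 0.5 FPKM, where 7 with empty vector and 9 with ZBTB16 were possible at 1 FPKM. Possible trimers came to 8 in both groups at 0.1 and 0.5 FPKM and to 2 at 5 FPKM, against 4 with empty vector and 6 with ZBTB16 at 1 FPKM. Without length correction, shares of reads within a class were 6.88% (empty vector) and 7.54% (ZBTB16) for ITGA5, 8.43% and 9.38% for ITGA2, 60.7% and 60.4% for ITGA3 and 56.1% and 56.8% for ITGB1. On that scale LAMB1, with 41.3% and 38.4%, stood above LAMB3, with 31.0% and 33.8%. Chains under 1 FPKM rest on at most 237 reads per library, and were not tested.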

Other observations

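Empty-vector replicate 1 was the lowest of its group for 12 of the 18 tested chains, ITGA2, ITGA3, ITGB1 and ITGA11 among them, and for 36.7% of all tested genes. Empty-vector replicate 3 was the highest of its group for 10 of the 18, and for 30.8% of all tested genes. In the ZBTB16 group replicate 2 was the lowest for 8 and the highest for 7 of the 18, and for 35.8% and 37.0% of all tested genes, and replicate 3 was the highest for 9, and for 32.2%. In ZBTB16 replicate 2 the matrix proteoglycan HSPG2 stood at 15.2 FPKM, against 18.6 and 22.0 in the other two, and the plakin PLEC at 114 against 147 and 159.9. Without it the log2 fold change of LAMA5 was 0.19, and without ZBTB16 replicate 3 it was -0.03.

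ILK, the adaptor that links integrin tails to actin, stood at 0.841, 0.808 and 0.827 FPKM with empty vector and at 0.762, 1.48 and 1.04 FPKM with ZBTB16. Exons of genes on the opposite strand cover 78.5% of its exon bases, so its level is uncertain.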
